A study of Homo sapiens with 16 samples.

Results

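The 10 genes described here set the phosphorylation of the translation factor eIF2α: the kinases EIF2AK1, EIF2AK2, EIF2AK3 and EIF2AK4, the EIF2AK4 partners GCN1 and IMPACT, the phosphatase subunits PPP1R15A and PPP1R15B, and the mitochondrial relay genes OMA1 and DELE1. They were chosen by gene symbol from the 58051 gene identifiers of the deposited table, and all 10 were found. RNA sequencing was done on 16 libraries of P493-6, a human B cell line, immortalised, that carries a MYC transgene repressible by doxycycline and an oestrogen-dependent form of the viral regulator EBNA2. Cells labelled MYC high received no additive, and cells labelled MYC medium were given doxycycline at 0.1 µg/mL with β-estradiol at 1 µM, starting 24 h before treatment. Each MYC level was then exposed for 24 h to 100 nM IMP1088, which blocks the N-myristoyltransferases, or to DMSO as the control. This gave 4 groups of 4 libraries, and the title of the series asks about NMT inhibition against the background of MYC levels. All groups come from this 1 line, and the additives set the MYC level, so MYC, doxycycline and estradiol cannot be told apart. Nothing in the labels says that the 4 libraries of a group came from separate cultures, so p-values measure the spread between libraries only, which may be technical.

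Phosphorylated eIF2α blocks its own exchange factor eIF2B, which lowers most protein synthesis while favouring translation of a few mRNAs such as that of the transcription factor ATF4. Each kinase answers a different stress: EIF2AK1 (HRI) haem shortage and, through OMA1 and DELE1, mitochondrial damage; EIF2AK2 (PKR) double-stranded RNA; EIF2AK3 (PERK) unfolded protein in the endoplasmic reticulum; and EIF2AK4 (GCN2) uncharged tRNA and stalled ribosomes. PPP1R15A (GADD34) and PPP1R15B (CReP) bring protein phosphatase 1 to eIF2α and remove the phosphate, PPP1R15A as an inducible subunit and PPP1R15B as a constitutive one. The files measure mRNA only, so phosphorylation of eIF2α and kinase activity were not measured.

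Sequences upstream of the annotated starts are shown for PPP1R15A, PPP1R15B and EIF2AK2, the only members searched that held a match to a motif named below. The mRNAs of PPP1R15A and PPP1R15B both rose with IMP1088 but by different amounts at medium MYC, and that of EIF2AK2 fell at both MYC levels. The sequences shown are from RefSeq on GRCh38.p14, written 5′ to 3′ on the strand of the gene. They end at the start, except that the EIF2AK2 stretch runs 4 bases past it. RefSeq starts and the GENCODE gene ends given further on differ. Capitals mark the motif matches found.
PPP1R15A, chr19:48872171-48872420, plus strand: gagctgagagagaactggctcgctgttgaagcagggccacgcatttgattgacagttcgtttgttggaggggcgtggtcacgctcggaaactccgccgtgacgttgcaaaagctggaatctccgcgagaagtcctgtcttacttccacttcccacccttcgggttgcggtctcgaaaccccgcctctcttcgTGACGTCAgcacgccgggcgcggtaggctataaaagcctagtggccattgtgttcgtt
PPP1R15B, chr1:204411818-204412067, minus strand: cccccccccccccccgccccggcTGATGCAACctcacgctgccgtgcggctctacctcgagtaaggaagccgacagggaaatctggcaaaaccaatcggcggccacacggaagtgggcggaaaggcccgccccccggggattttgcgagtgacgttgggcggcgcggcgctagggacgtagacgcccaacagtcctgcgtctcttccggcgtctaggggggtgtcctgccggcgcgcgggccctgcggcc
EIF2AK2, chr2:37156977-37157230, minus strand: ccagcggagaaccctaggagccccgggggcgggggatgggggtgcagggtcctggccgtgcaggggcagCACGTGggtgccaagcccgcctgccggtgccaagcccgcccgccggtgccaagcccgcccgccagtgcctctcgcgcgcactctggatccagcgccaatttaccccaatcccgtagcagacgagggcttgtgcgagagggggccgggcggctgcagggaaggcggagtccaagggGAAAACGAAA
To look for shared elements, 5 motifs were searched on both strands from 250 bases before to 50 bases after the start, in 9 of the 10 members and in all 35116 promoters of the RefSeq table. The cyclic AMP response element TGACGTCA, which ATF family factors can bind, lay 58 bases before the PPP1R15A start and was found in 1.85% of promoters. PPP1R15B held a match to the C/EBP-ATF element, searched as TGATGNAAN and present in 3.61% of promoters, with its first base 227 bases before the start. In EIF2AK2 an interferon-stimulated response element, searched as GAAA repeated after any 2 bases and held by 3.57% of promoters, spanned the start, and an E-box, CACGTG, held by 7.26%, lay 181 bases before it. The endoplasmic reticulum stress element, searched as CCAAT followed by CCACG after any 9 bases and held by 0.0769% of promoters, had no match in the members. TGACGTCA and CACGTG read the same on both strands, no match overlapped one of another motif, and the other 6 members searched had no match. These are matches of letters and were not tested as binding sites, and all motifs but the C/EBP-ATF element were chosen after values were known.

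Values are normalized counts: reads per gene divided by a size factor for each library. Reads counted in genes, recovered from these values, summed to between 8755296 and 13858534 a library, and the members had from 99 to 5705 reads each in a library. MYC mRNA followed the labels, with 29693 to 34376 normalized counts in high MYC controls and 904 to 1022 in medium MYC controls. It also rose with IMP1088, to 46843 to 48049 at high MYC (0.59 on the log2 scale, limma adjusted p 7.24e-10) and 1328 to 1444 at medium MYC (0.53, limma adjusted p 2.74e-09), and the part of this rise in the results was not tested. All 6 B cell markers were present at 365.6 or more in every library, and their summed count was 23822 to 24000 in high MYC controls, 19245 to 20206 in high MYC with IMP1088, 38767 to 39481 in medium MYC controls and 34126 to 35361 in medium MYC with IMP1088. Markers of other cells were low: of 3 T cell, 3 monocyte, 3 epithelial and 2 liver markers, KRT18 was at 0 in every library, CD8A and ALB reached 1 read at most, and the highest was CDH1 at 94.4. Their sums in the same group order were 32.0 to 42.9, 28.0 to 35.8, 50.1 to 76.1 and 31.5 to 40.7 for T cell markers, 41.4 to 64.8, 50.5 to 64.4, 51.7 to 60.5 and 78.6 to 83.4 for monocyte markers, and 55.0 to 70.8, 64.3 to 86.3, 60.5 to 76.1 and 84.6 to 109.5 for epithelial markers. Within the epithelial sum the markers moved in opposite directions between MYC levels, CDH1 from 0 to 1.08 in high MYC libraries against 46.8 to 94.4 at medium MYC, and EPCAM from 54.2 to 86.3 against 9.39 to 22.8. The B cell sums did not overlap between any of the 4 groups, while each of the other sums overlapped between several groups. Several members moved with the groups as well, and the part of the markers in the results was not tested.

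With IMP1088 the mRNAs of both phosphatase subunits and of EIF2AK3 rose at both MYC levels, and that of EIF2AK2 fell at both. PPP1R15A and EIF2AK3 rose 1.57-fold and 1.53-fold at medium MYC, and 1.16-fold and 1.20-fold at high MYC. EIF2AK1 rose at medium MYC and IMPACT at high MYC, and no change of EIF2AK4, GCN1, OMA1 or DELE1 was called. At high MYC 5 of the 10 members were called at a limma adjusted p under 0.05, 4 higher and 1 lower, where 26.8% of the 13765 tested genes were called, 10.5% higher and 16.3% lower. At medium MYC 5 of 10 were called, again 4 higher and 1 lower, against a background of 26.3%, with 11.7% higher and 14.6% lower. The median log2 change of the members was 0.05 at high MYC and 0.06 at medium MYC, beside -0.02 and -0.01 over all tested genes. All 10 members passed the filter on low values. The direction of the background depended on scaling: quantile normalization gave 1727 higher and 1770 lower genes at high MYC in place of 1442 and 2247, and library totals without the 10 genes with most reads gave 2029 and 1677 at medium MYC in place of 1606 and 2012. RNA came from whole cultures, so fewer cells expressing a gene and less of its RNA per cell cannot be told apart.

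**Figure D1:**
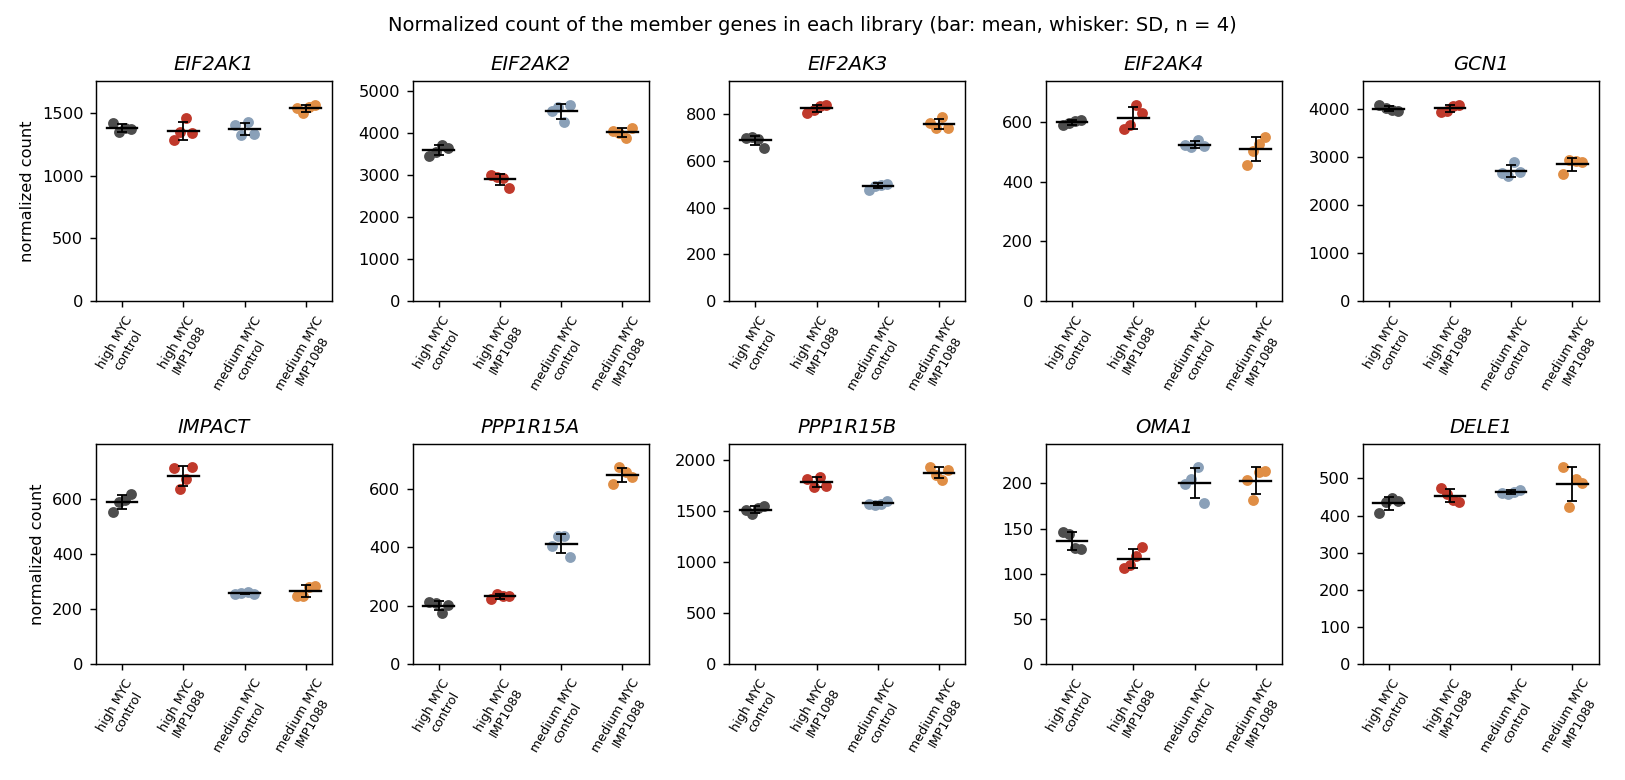
Normalized count of each of the 10 genes (vertical axes, each starting at 0) in the 16 libraries, with 4 points per group, the group mean as a bar and the SD as a whisker (n = 4). PPP1R15A runs from 175 in a high MYC control to 675 in a medium MYC library with IMP1088, and IMPACT is at 552 or more in every high MYC library and at 284 or less in every medium MYC library.

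EIF2AK3 (ENSG00000172071; chromosome 2, 88556741 to 88627576 on GRCh38) encodes the kinase of the endoplasmic reticulum membrane. Its normalized counts were 699.7, 701, 694 and 657 in high MYC controls, and 805, 819.7, 835 and 841 with IMP1088. Controls at medium MYC had 478, 494, 499 and 502, and the treated libraries 762, 741, 788 and 740.1. Treated and control libraries did not overlap at either level, and the treated libraries at medium MYC stood above every high MYC control. The log2 change was 0.26 at high MYC (SE 0.04, limma adjusted p 1.80e-05), which is 1.20-fold, and 0.62 at medium MYC (SE 0.04, limma adjusted p 5.38e-11), which is 1.53-fold. Exons of EIF2AK3 overlap AC062029.1 and AC104134.1 on the opposite strand over 15.1% of their bases, and reads of the genes cannot be told apart there unless counting used strand, which is not given in the sources used here.

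EIF2AK2 (ENSG00000055332; chromosome 2, 37099210 to 37157065) encodes the kinase that binds double-stranded RNA and is itself an interferon-induced gene. High MYC controls had 3455, 3565, 3725 and 3658 normalized counts, and high MYC libraries with IMP1088 had 3002, 2959, 2942 and 2694. Medium MYC controls had 4519, 4621, 4274 and 4682, against 4046, 4006, 3892 and 4129 with IMP1088. Each treated library lay below each control of its MYC level, while all medium MYC libraries lay above all high MYC libraries. EIF2AK2 fell by 0.31 on the log2 scale at high MYC (SE 0.04, limma adjusted p 1.14e-06) and fell by 0.17 at medium MYC (SE 0.04, limma adjusted p 0.00115). Its exons overlap AC007899.1 and GPATCH11 on the opposite strand over 4.05% of their bases.

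EIF2AK1 (ENSG00000086232; chromosome 7, 6022244 to 6059230), the haem-regulated kinase that the OMA1-DELE1 relay activates, had 1404, 1324, 1424 and 1334 normalized counts in medium MYC controls and 1536, 1498, 1549 and 1566 with IMP1088. These groups did not overlap, and the log2 change was 0.17 (SE 0.04, limma adjusted p 0.00199). High MYC controls had 1418, 1348, 1381 and 1368, and the treated libraries 1285, 1349.9, 1458 and 1341, so the treated values surrounded those of the controls. The change there was -0.02 (95% interval -0.10 to 0.06, limma adjusted p 0.712). AIMP2 overlaps 9.59% of the EIF2AK1 exon bases on the opposite strand.

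EIF2AK4 (ENSG00000128829; chromosome 15, 39934146 to 40035591) encodes the kinase that senses amino acid shortage. It ranged from 579 to 659 in treated and from 589 to 606 in control libraries at high MYC, and from 458 to 551 and from 516 to 542 at medium MYC. Treated libraries were more spread than controls at both levels and overlapped them. Neither change was called: 0.03 at high MYC (95% interval -0.07 to 0.14, limma adjusted p 0.679) and -0.05 at medium MYC (95% interval -0.15 to 0.06, limma adjusted p 0.577).

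IMPACT (ENSG00000154059; chromosome 18, 24426616 to 24453535) encodes an inhibitor of EIF2AK4 that competes for GCN1. High MYC controls had 552, 589.6, 595 and 617 normalized counts, and treated libraries 712, 636, 670.2 and 714, all above the highest control. The log2 change was 0.21 (SE 0.06, limma adjusted p 0.00756). At medium MYC the controls had 252, 257, 259.9 and 254 and the treated libraries 248, 245, 281 and 284, some below and some above the controls. The change was 0.05 (95% interval -0.07 to 0.17, limma adjusted p 0.603).

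GCN1 (ENSG00000089154; chromosome 12, 120127203 to 120194710) encodes the ribosome-bound protein that EIF2AK4 needs for its activation. Treated libraries had 3945 to 4090.4 normalized counts and controls 3959.8 to 4078 at high MYC, with a log2 change of 0.0023 (95% interval -0.07 to 0.07, limma adjusted p 0.974). At medium MYC the controls had 2674, 2609, 2898 and 2688 and the treated libraries 2653, 2932, 2914 and 2894. The first treated library lay among the lower controls and the others lay near or above the highest one, and the change of 0.07 was not called (SE 0.03, limma adjusted p 0.16). It was called without that library (0.10, limma adjusted p 0.0263), without medium MYC control replicate 3 (0.10, limma adjusted p 0.0272), and under 5 of the other settings, among them equal library totals (0.10, limma adjusted p 0.0317) and the GC correction (0.11, limma adjusted p 0.00194).

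PPP1R15A (ENSG00000087074; chromosome 19, 48872392 to 48876057) had 212, 209, 175 and 203 normalized counts in high MYC controls and 222, 238, 234 and 232 with IMP1088. Medium MYC controls had 406, 438, 438 and 368, and treated libraries 617, 675, 658 and 641. The groups were ordered without overlap: high MYC controls, high MYC with IMP1088, medium MYC controls, medium MYC with IMP1088. At medium MYC the log2 change was 0.65 (SE 0.07, limma adjusted p 1.40e-07), or 1.57-fold. At high MYC it was 0.21 (SE 0.07, limma adjusted p 0.0202), or 1.16-fold. The call at high MYC was lost in DESeq2 (0.21, adjusted p 0.0662), in a fit of the compared groups only (0.21, limma adjusted p 0.0551), without high MYC control replicate 3 (0.15, limma adjusted p 0.0797) and without high MYC IMP1088 replicate 2 (0.20, limma adjusted p 0.0545).

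PPP1R15B (ENSG00000158615; chromosome 1, 204403387 to 204411791) had 1506, 1470.1, 1523 and 1543 normalized counts in high MYC controls and 1811, 1735, 1828 and 1743 with IMP1088. Medium MYC controls had 1567, 1556, 1565 and 1597 and the treated libraries 1925, 1852, 1804 and 1903. Treated libraries of both levels lay above all controls of both levels. The log2 change was 0.24 at high MYC (SE 0.03, limma adjusted p 4.43e-06) and 0.25 at medium MYC (SE 0.03, limma adjusted p 1.70e-06).

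OMA1 (ENSG00000162600; chromosome 1, 58415384 to 58546802) encodes the stress-activated protease of the mitochondrial inner membrane that cleaves DELE1, and it had the fewest reads among the members. High MYC controls had 146, 144, 128 and 127 normalized counts and treated libraries 106, 109.8, 119.6 and 129.9, and the groups overlapped through the highest treated library. The log2 change of -0.23 was not called (95% interval -0.41 to -0.05, limma adjusted p 0.059), and it was called without that library, high MYC IMP1088 replicate 4 (-0.28, limma adjusted p 0.0282). At medium MYC the change was 0.02 (95% interval -0.16 to 0.20, limma adjusted p 0.9). Exons of DAB1 on the same strand share 6.91% of the OMA1 exon bases, so reads there could have been given to either gene.

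DELE1 (ENSG00000081791; chromosome 5, 141923808 to 141942047) encodes the mitochondrial protein whose cleaved form binds EIF2AK1 in the cytosol. It had 407 to 448 normalized counts in controls and 438 to 475 in treated libraries at high MYC, and 458 to 469 and 422 to 530.1 at medium MYC. The groups overlapped at both levels. Its log2 changes were 0.07 (95% interval -0.05 to 0.18, limma adjusted p 0.448) and 0.06 (95% interval -0.06 to 0.18, limma adjusted p 0.478).

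Whether a response depended on the MYC level was tested as the difference between both responses, high minus medium MYC. The response of 3 members was lower at high than at medium MYC: PPP1R15A with a difference of -0.44 (SE 0.09, limma adjusted p 0.00368), EIF2AK3 with -0.36 (SE 0.05, limma adjusted p 1.08e-04) and EIF2AK1 with -0.19 (SE 0.05, limma adjusted p 0.0279). No member had a called difference in the other direction. Of all tested genes 8.63% had a called difference, 3.31% with a higher and 5.33% with a lower response at high MYC. After the GC correction that background was 782 higher and 852 lower genes, in place of 455 and 733. The median difference was -0.10 over the members and -0.02 over all tested genes. The EIF2AK1 call was lost without a filter on low values (limma adjusted p 0.0594), without the mean trend (0.0672) and when any of 8 libraries was left out, with limma adjusted p from 0.0519 to 0.0684. Those libraries were replicate 1 of the high MYC controls, replicates 1, 2 and 4 of high MYC with IMP1088, replicates 2 and 4 of the medium MYC controls and replicates 3 and 4 of medium MYC with IMP1088, and the difference without them was -0.16 to -0.19 on the log2 scale.

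The remaining members had no called difference between responses. For PPP1R15B the difference was -0.02 (95% interval -0.10 to 0.07, limma adjusted p 0.889), and for DELE1 it was 0.0035 (-0.17 to 0.17, limma adjusted p 0.988). The interval of EIF2AK2, -0.25 to -0.04 around -0.14, lay below 0 before adjustment (limma adjusted p 0.0947), and the gene was called after the GC correction (-0.13, limma adjusted p 0.0232). IMPACT had 0.17 (-0.0007 to 0.34, limma adjusted p 0.237) and OMA1 -0.25 (-0.50 to 0.01, limma adjusted p 0.255), wide intervals that hold both 0 and sizes as large as those called for EIF2AK1. EIF2AK4 had 0.08 (limma adjusted p 0.595) and GCN1 -0.07 (limma adjusted p 0.485). The difference shares its libraries with both single responses, so the values are given side by side and their likeness is not a separate result.

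Among the DMSO controls, 7 of the 10 members differed between MYC levels, 3 higher and 4 lower at medium MYC, where 76.2% of tested genes were called, 38.9% higher and 37.3% lower. The share of members called is thus near the background. IMPACT had the largest change, with means of 588 ± 26.9 at high and 256 ± 3.38 at medium MYC (SD, n = 4). On the log2 scale this was -1.20 (SE 0.06, limma adjusted p 2.45e-14). PPP1R15A went the other way, from 175 to 212 normalized counts in high MYC controls to 368 to 438 in medium MYC controls, with a change of 1.04 (SE 0.07, limma adjusted p 3.74e-12). The groups of each of these genes did not overlap.

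Both genes that act on EIF2AK4 fell at medium MYC together with the kinase, GCN1 by 0.56 on the log2 scale (SE 0.03, limma adjusted p 2.10e-12) and EIF2AK4 by 0.19 (SE 0.05, limma adjusted p 0.00246), against the 1.20 of IMPACT. EIF2AK3 fell by 0.48 (SE 0.04, limma adjusted p 1.47e-10), while EIF2AK2 rose, with a change of 0.33 (SE 0.04, limma adjusted p 3.81e-08). OMA1 was higher at medium MYC, 200.4 ± 16.3 against 136 ± 9.99 (SD, n = 4), a change of 0.55 (SE 0.09, limma adjusted p 6.86e-06). EIF2AK1 had -0.01 (95% interval -0.09 to 0.07, limma adjusted p 0.848), PPP1R15B 0.06 (-0.01 to 0.12, limma adjusted p 0.0945) and DELE1 0.10 (-0.02 to 0.22, limma adjusted p 0.127). After the GC correction EIF2AK1 was called lower (-0.15, limma adjusted p 5.85e-04), PPP1R15B turned to -0.07 (limma adjusted p 0.0204) and EIF2AK4 was at -0.33. That correction also moved the median of all genes from 0.02 to -0.10. With library totals that leave out the 10 genes with most reads, PPP1R15B (0.11, limma adjusted p 0.00256) and DELE1 (0.15, limma adjusted p 0.022) were called higher at medium MYC.

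With IMP1088 in both groups, 9 of 10 members differed between MYC levels, 5 higher and 4 lower at medium MYC, against 77.5% of tested genes, 39.7% higher and 37.8% lower. IMPACT had -1.37 (SE 0.06, limma adjusted p 2.25e-15), GCN1 -0.50 and EIF2AK4 -0.27, and PPP1R15A had 1.48 (SE 0.07, limma adjusted p 6.95e-15), which is 2.79-fold. OMA1 was higher by 0.80 (SE 0.09, limma adjusted p 3.10e-08) and EIF2AK2 by 0.47 (SE 0.04, limma adjusted p 9.75e-11). EIF2AK3 stood at -0.12 on the log2 scale (SE 0.04, limma adjusted p 0.00531), beside -0.48 among controls, and lost the call with library totals that leave out the 10 genes with most reads (-0.07, limma adjusted p 0.0978). The changes of EIF2AK1, 0.18 (SE 0.04, limma adjusted p 1.81e-04), and PPP1R15B, 0.07 (SE 0.03, limma adjusted p 0.0357), rested on the setting. After the GC correction, which put the median of all genes at -0.12, EIF2AK1 was at 0.02 (limma adjusted p 0.648) and PPP1R15B at -0.08 (limma adjusted p 0.01). DELE1 alone was not called (0.09, 95% interval -0.03 to 0.21, limma adjusted p 0.14), and without medium MYC IMP1088 replicate 2 it was (0.16, limma adjusted p 0.00738), as it was with library totals that leave out the 10 genes (0.15, limma adjusted p 0.0202).

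Levels were compared between genes per kilobase of annotated exon. In high MYC controls GCN1 was highest at 415 ± 5.47 (SD, n = 4) normalized counts per kilobase, followed by EIF2AK2 at 335 ± 10.9, PPP1R15B at 289 ± 5.94 and EIF2AK1 at 248 ± 5.35. EIF2AK3 at 127 ± 3.81 and IMPACT at 119.6 ± 5.48 overlapped, as did DELE1 at 71.6 ± 2.94 and PPP1R15A at 64.7 ± 5.43, and EIF2AK4 at 50.1 ± 0.610 and OMA1 at 36.7 ± 2.69 were lowest. In medium MYC controls EIF2AK2 was highest at 421 ± 16.7, and PPP1R15B at 301 ± 3.39 overlapped GCN1 at 281 ± 13.0. There PPP1R15A, at 133 ± 10.8, stood above EIF2AK3 at 90.8 (87.9 to 92.4), DELE1 at 76.6 ± 0.810, OMA1 at 53.9 ± 4.38 and IMPACT at 52.0 ± 0.688. EIF2AK4 was lowest there at 43.9 ± 0.968. Exon length decides part of this order: divided by the longest transcript, EIF2AK4 moved from the ninth to the seventh place among high MYC controls and from the tenth to the seventh among medium MYC controls, and EIF2AK1 stood above PPP1R15B in both.

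With IMP1088 the high MYC libraries had GCN1 first at 416 ± 7.39 per kilobase, and PPP1R15B at 340.4 ± 9.03 stood above EIF2AK2 at 269.6 ± 12.9, which overlapped EIF2AK1 at 245 ± 13.0. EIF2AK3 followed at 152 ± 2.94 and IMPACT at 139 ± 7.62, then DELE1 at 74.9 ± 2.85 and PPP1R15A at 74.8 ± 2.31, which overlapped, EIF2AK4 at 51.4 ± 3.09 and OMA1 at 31.3 ± 2.84. In medium MYC libraries with IMP1088 EIF2AK2 at 374 ± 9.18 overlapped PPP1R15B at 358 ± 10.3, and GCN1 at 295 ± 13.6 overlapped EIF2AK1 at 277 ± 5.20. PPP1R15A followed at 209 ± 7.87, above EIF2AK3 at 139 ± 4.11, DELE1 at 80.2 ± 7.52, OMA1 at 54.6 ± 4.01, IMPACT at 53.8 ± 4.23 and EIF2AK4 at 42.6 ± 3.30. OMA1 and IMPACT overlapped in both medium MYC groups. Exon length matters here as well. Divided by the longest transcript, EIF2AK1 stood above EIF2AK2, IMPACT above EIF2AK3 and PPP1R15A above DELE1 in high MYC libraries with IMP1088. EIF2AK4, at 112 per kilobase, also stood above PPP1R15A at 97.3 and DELE1 at 91.2 there. In medium MYC libraries with IMP1088 EIF2AK1 then stood above GCN1, and IMPACT was lowest in place of EIF2AK4.

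Because some members act as pairs, their per-kilobase ratios are given for each library as descriptions without a test. PPP1R15A over PPP1R15B was 0.195 to 0.240 in high MYC controls and 0.207 to 0.232 with IMP1088, so the balance of inducible to constitutive phosphatase subunit mRNA overlapped between them. At medium MYC it was 0.389 to 0.476 in controls and 0.542 to 0.616 with IMP1088. IMPACT over GCN1 was 0.266 to 0.306 and 0.315 to 0.354 at high MYC and lower at medium MYC, 0.176 to 0.193 and 0.164 to 0.193. EIF2AK3 over EIF2AK2 was 0.356 to 0.401 in controls and 0.531 to 0.618 with IMP1088 at high MYC, and 0.209 to 0.231 and 0.355 to 0.400 at medium MYC, without overlap at either level. Of the summed per-kilobase level of the 4 kinases, EIF2AK2 held 44.1% ± 1.07 (SD, n = 4) in high MYC controls, 37.6% ± 1.63 with IMP1088, 52.4% ± 1.59 in medium MYC controls and 44.9% ± 0.848 with IMP1088. These shares depend on the length used: EIF2AK4 has 11957 annotated exon bases, against 5499 in its longest transcript.

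**Figure D2:**
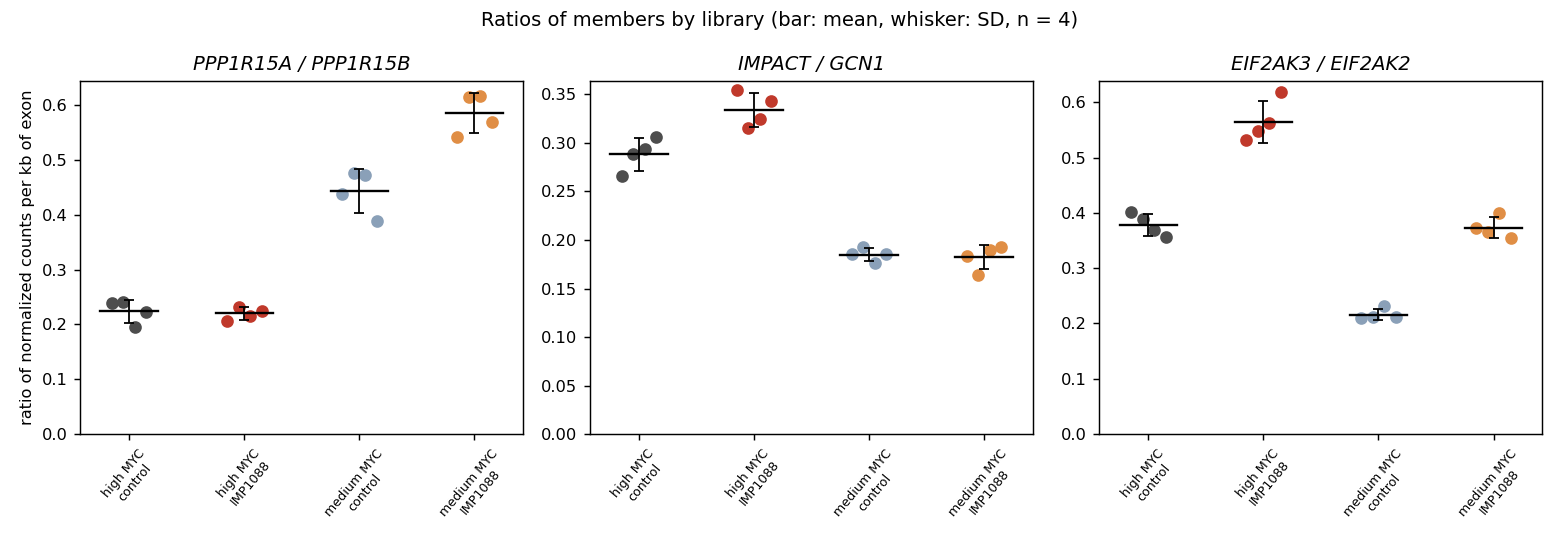
Ratio of normalized counts per kilobase of exon (vertical axes, from 0) for PPP1R15A over PPP1R15B, IMPACT over GCN1 and EIF2AK3 over EIF2AK2 in each library, with 4 points per group, the mean as a bar and the SD as a whisker (n = 4). PPP1R15A over PPP1R15B overlaps between both high MYC groups and reaches 0.542 to 0.616 at medium MYC with IMP1088.

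The surrounding pathway was described with 34 further genes in 5 roles, all of which were tested. This list was chosen with earlier results of these data known, so its shares beside the background are descriptions only. At high MYC 7 of the 34 were called with IMP1088, 3 higher and 4 lower, against 26.8% of all tested genes. At medium MYC 16 were called, 11 higher and 5 lower, against 26.3%. The response differed for 11, 1 higher and 10 lower at high than at medium MYC, where 3.31% of all tested genes were called higher and 5.33% lower, and the median difference was -0.11 against -0.02 over all tested genes. That count was 6 without a filter on low values and 7 without the mean trend.

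Of 6 regulators of the kinases, 4 had a called difference between responses, 3 of them lower at high MYC. Of all tested genes 3.31% were called higher and 5.33% lower. ADAR and MAP3K20 lost this call without a filter on low values. HSPA5, the chaperone whose release activates EIF2AK3, had 2891, 3058, 2922 and 3081 normalized counts in medium MYC controls and 7245, 7231, 7386 and 7115 with IMP1088, 1.28 on the log2 scale (SE 0.03, limma adjusted p 3.32e-18). At high MYC its controls had 4831 to 5183 and its treated libraries 5101 to 5203, and the difference between responses was -1.24 (SE 0.04, limma adjusted p 7.02e-15). DNAJC3, a co-chaperone that inhibits EIF2AK3 and EIF2AK2, rose by 0.60 at medium MYC and 0.20 at high MYC, with a difference of -0.39 (SE 0.07, limma adjusted p 6.20e-04). ADAR, which edits the double-stranded RNA that EIF2AK2 senses, fell by 0.20 at high MYC (limma adjusted p 7.66e-07) with a change of -0.08 at medium MYC and a difference of -0.12 (SE 0.03, limma adjusted p 0.0188). MAP3K20, a kinase of stalled ribosomes, was the exception in sign with a difference of 0.22 (SE 0.06, limma adjusted p 0.0268), which lost its call under 9 settings, among them equal library totals (0.21, limma adjusted p 0.0638).

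Another role held 7 genes, the transcription factors that act below eIF2α and their inhibitor TRIB3. All 7 were called with IMP1088 at medium MYC, 5 higher and 2 lower, where 26.3% of tested genes were called. At high MYC 2 of the 7 were called, both lower, a share near the background of 26.8%. DDIT3 (CHOP) had 52.2, 36.0, 55.1 and 49.2 normalized counts in medium MYC controls and 142, 150.0, 165 and 157 with IMP1088, 1.67 on the log2 scale (SE 0.19, limma adjusted p 7.82e-07). Its response differed by -1.41 (SE 0.27, limma adjusted p 0.00145), and 39.6% of its exon bases overlap other genes. CEBPB rose by 1.08 at medium MYC (SE 0.16, limma adjusted p 2.08e-05), and its response differed by -0.88 (limma adjusted p 0.0147). ATF4 mRNA had 1522, 1514, 1623 and 1521 in medium MYC controls and 1956, 1915, 2029 and 1940.0 with IMP1088, and its response differed by -0.42 (SE 0.05, limma adjusted p 2.47e-06). At high MYC ATF4 had 2356 to 2499.9 in controls and 2270 to 2439 with IMP1088, above every medium MYC library. CEBPB also stayed lower at medium MYC, 44.3 to 73.5 with IMP1088 against 73.8 to 113 over the high MYC libraries. With IMP1088 DDIT3 went the other way, with 142 to 165 at medium MYC against 27.6 to 56.2 over the high MYC libraries. Its medium MYC controls, at 36.0 to 55.1, lay within that high MYC range. CEBPG and ATF3 differed by -0.49 and -0.68 (limma adjusted p 4.19e-04 and 0.0345). Without a filter on low values, the 6 called differences of the pathway list were those of HSPA5, DNAJC3, DDIT3, CEBPB, ATF4 and CEBPG. The differences of ATF3 and ATF5 were thus not called in that setting. ATF5 and TRIB3, a pseudokinase that restrains ATF4 and DDIT3, fell at both levels, TRIB3 by 0.50 at high MYC and 0.35 at medium MYC (limma adjusted p 1.68e-05 and 8.34e-04). ATF4, CEBPG and MAP3K20 were named after their values were seen, because their difference in response was called.

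Other roles moved less with IMP1088. Of 10 genes of eIF2 and eIF2B, 2 were called at high MYC and 3 at medium MYC, all higher, which is near the background of 26.8% and 26.3% of tested genes. They included EIF2S3, the γ subunit of eIF2 (0.10 and 0.21, limma adjusted p 0.00782 and 3.20e-06), and EIF5, its GTPase-activating partner (0.10 and 0.25, limma adjusted p 0.0268 and 3.73e-06). The call for EIF5 at high MYC, and its difference in response of -0.15 (limma adjusted p 0.0392), were lost without the mean trend (limma adjusted p 0.0613 and 0.0934) and the difference also with the replicate block (limma adjusted p 0.0706) and after the GC correction (limma adjusted p 0.0544). The catalytic subunit PPP1CA fell at both levels (-0.17 and -0.14, limma adjusted p 8.33e-04 and 0.00518), and the second call was lost after the GC correction (-0.05, limma adjusted p 0.193). Of 8 mitochondrial partners none was called at high MYC and 1 at medium MYC, YME1L1, an inner membrane protease (0.14, limma adjusted p 0.0126). It was not called without medium MYC control replicate 3 (0.10, limma adjusted p 0.0508).

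Between MYC levels most of the pathway moved, as did most tested genes: 29 of 34 were called among controls, 22 lower and 7 higher at medium MYC. Of all tested genes 76.2% were called there, 37.3% lower and 38.9% higher. With IMP1088 30 were called, 19 lower and 11 higher, against 77.5% of tested genes, 37.8% lower and 39.7% higher. The prohibitins PHB1 and PHB2, scaffold proteins of the inner mitochondrial membrane, fell by 1.28 and 1.16 among controls (limma adjusted p 8.48e-18 and 8.43e-18), and no mitochondrial partner was called higher there, while OMA1 was. Among controls genes of eIF2 and eIF2B were called lower in 8 of 10 cases, where 37.3% of tested genes were. EIF2B3 was at -1.03 and the eIF2 assembly factor CDC123 at -0.71. Of the catalytic subunits PPP1CA was higher (0.45) and PPP1CC lower (-0.45), the latter with limma adjusted p 1.43e-09. ATF3 was higher by 1.83 and CEBPB lower with -1.64, and HSPA5 was lower with -0.75, all called.

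**Figure D3:**
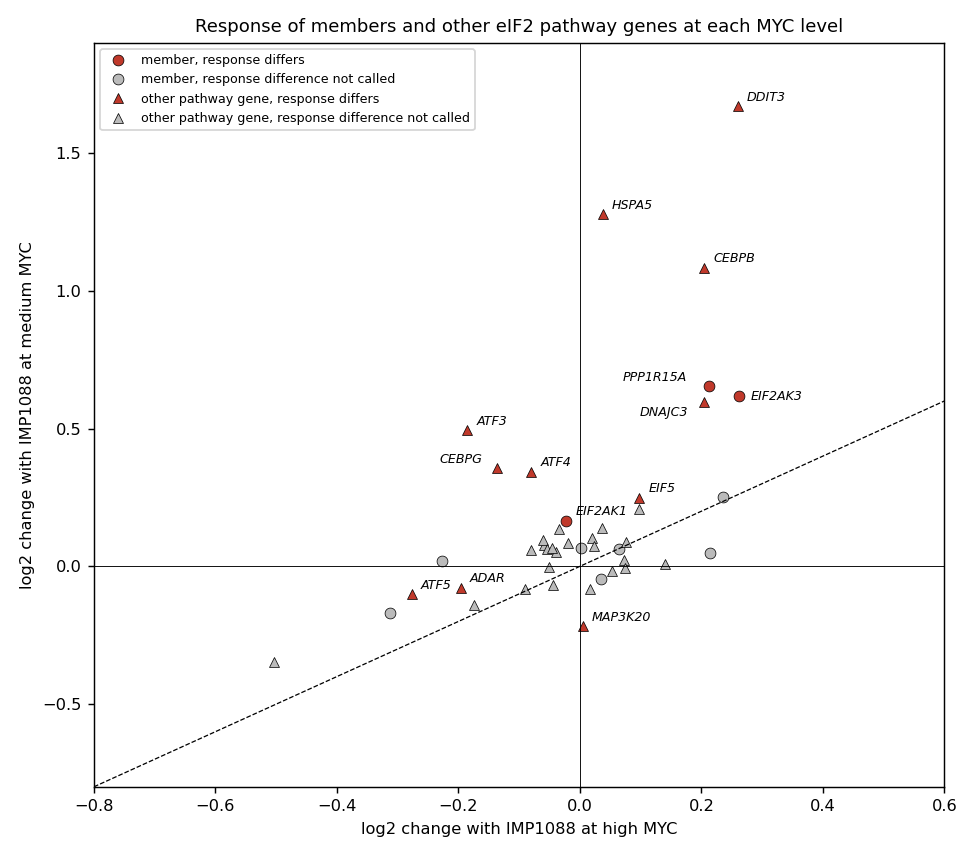
Log2 change with IMP1088 at high MYC (horizontal axis) against that at medium MYC (vertical axis) for the 10 members (circles) and 34 other pathway genes (triangles), one point per gene from 4 against 4 libraries; red points had a called difference between both responses and the dashed line marks equal responses. DDIT3, HSPA5 and CEBPB lie highest at 1.67, 1.28 and 1.08 on the vertical axis, with PPP1R15A, EIF2AK3 and DNAJC3 next, and MAP3K20 is the red point below the line.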

How the data were processed

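RNA was sequenced from 16 P493-6 libraries in 4 groups of 4, grouped by the MYC level and treatment in the labels. The deposited values are a signal in normalized counts that the authors made. The submitters' processing notes name STAR 2.5.2a, RSEM 1.2.31, DESeq2 1.16.1 and the GRCh38 build, without their roles. The gene annotation and use of strand are not given in the sources used here. Each library's values are whole multiples of 1 step, 100% of them, so whole counts per gene, called reads here, were recovered. Whether they had been rounded before scaling cannot be told from the values. The steps equal median-of-ratios size factors, 0.858 to 1.33; in a pair of libraries the step is too near 1 for the file check to recover reads by itself. Because values are scaled per library, they hold no measure of RNA per cell.

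Symbols matched 56948 identifiers, and positions and exon lengths are from GENCODE 29, which held 57447. Log2(value + 1) was fitted with limma 3.58.1 (R 4.3.3), taking the 13765 genes whose mean reached 10, with 4 group means in 1 fit, a mean trend, two-sided tests and Benjamini-Hochberg adjustment over all of them. Calls are at adjusted p under 0.05. Replicate numbers were not taken as pairs, since no label says what they share and same-numbered residuals correlated at means of -0.0715 to 0.0243. No 2 replicates agreed within sampling noise. The members and lists were chosen with earlier results of these data known. All members were named; of the 34 pathway genes, up to 2 called genes with the largest change per role and comparison, plus ATF4, CEBPG and MAP3K20 after their values were seen. Motifs other than the C/EBP-ATF element were chosen after values were known. The code of the fits was run on simulated counts with a common dispersion for all genes and changes only in high MYC with IMP1088. Those settings differ from these data, so the run does not give error rates here.

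Alternatives were equal library totals, quantile normalization, size factors from tested genes, pseudocounts of 0.1 or 10, no filter, a mean of at least 100, no trend, only the groups compared, a replicate block, count models on recovered reads with edgeR 4.0.16 and with DESeq2 1.42.0, and leaving out each library. A GC correction, alone or with the block, and library totals that leave out the 10 genes with most reads came after seeing the data. Protein features, which were planned, were not analysed here.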

Additional observations from a re-analysis of the deposited data

Results flagged for a closer look

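Single libraries stood apart from the other 3 of their group, by Dixon's criterion at the 95% level, in 9 of the 120 groups of 4 examined, where chance gives about 1 in 20. Among the members these were EIF2AK3 in high MYC control replicate 4, at 657 normalized counts against 694 to 701 in the others, and GCN1 in medium MYC IMP1088 replicate 1, at 2653 against 2894 to 2932. The EIF2AK3 library lies on the side away from the treated group, and the GCN1 change at medium MYC was called only when that library or one of the controls, replicate 3, was left out, or under another scaling or the GC correction. Among the pathway genes, DDIT3 was at 56.2 in high MYC control replicate 2 against 27.6 to 30.1 in the others, and CEBPB at 33.3 in medium MYC control replicate 3 against 23.8 to 24.8. ADAR was at 7905 in high MYC control replicate 3 against 7725 to 7749.7, and ATF5 at 2780.0 in medium MYC IMP1088 replicate 4 against 2657 to 2666. PHB1 was at 2312 in high MYC control replicate 1 against 2184 to 2197. ATF4 was at 2356 in high MYC control replicate 3 against 2476 to 2499.9, and at 1623 in medium MYC control replicate 3 against 1514 to 1522.

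The response to IMP1088 differed between high and medium MYC by a limma test of the difference itself for 14 of the genes named. Of all tested genes 8.63% had a called difference. Pathway genes were named because they were called in some comparison, so the count of 14 follows in large part from the naming. Among the members the differences were -0.44 for PPP1R15A, -0.36 for EIF2AK3 and -0.19 for EIF2AK1. Kinase regulators gave -1.24 for HSPA5, -0.39 for DNAJC3, -0.12 for ADAR and 0.22 for MAP3K20. Transcription factors gave -1.41 for DDIT3, -0.88 for CEBPB, -0.68 for ATF3, -0.49 for CEBPG, -0.42 for ATF4 and -0.17 for ATF5. The calls for ADAR, ATF3 and ATF5 were lost without a filter on low values. EIF5 gave -0.15, and its call was lost when any library was left out other than replicate 1 of each group and medium MYC IMP1088 replicate 3. The MAP3K20 call was lost without high MYC control replicate 1, high MYC IMP1088 replicates 2 or 3, medium MYC control replicates 1 or 4, or medium MYC IMP1088 replicate 3, with limma adjusted p from 0.0505 to 0.0661 and differences of 0.18 to 0.22.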

How the results depend on the processing

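Of the 50 member results, 29 were called, and 24 of these kept their direction and call under every alternative run, 31 for each comparison of groups and 1 fewer for the difference in response, which needs all groups. The others were PPP1R15A at high MYC, the EIF2AK1 difference in response, and EIF2AK1, EIF2AK3 and PPP1R15B between MYC levels with IMP1088. The PPP1R15B call there was lost without a filter, without the mean trend, in DESeq2, and without high MYC IMP1088 replicates 2 or 4 or medium MYC IMP1088 replicates 1 or 4. The number of members called stayed within 1.5 times its value in every alternative. The 34 pathway genes gave 11 calls at high MYC after the GC correction in place of 7, and for the difference in response 6 without a filter and 7 without the mean trend in place of 11. EIF5 at high MYC was not called without high MYC control replicates 1 or 2 or high MYC IMP1088 replicates 1 or 4, nor without a filter (limma adjusted p 0.059), without the mean trend (0.0613) or with the GC correction and the block together (0.0637, against 0.0429 with the correction alone). Its difference in response was not called without a filter (0.0858), without the mean trend (0.0934), with the block (0.0706), after the GC correction (0.0544) or with both (0.0823). ATF4 was called lower at high MYC without high MYC control replicate 3 or IMP1088 replicate 1, and CEBPG without control replicate 1.

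Changes that turned direction were small and, but for PPP1R15B between MYC levels, not called in either setting. With IMP1088 at high MYC, EIF2AK1 was at 0.0257 under quantile normalization and 0.000745 with library totals without the 10 genes with most reads, and MAP3K20 was at -0.0258 after the GC correction. At medium MYC the GC correction gave -0.0109 for IMPACT and -0.00920 for OMA1. For the difference in response it gave 0.0086 for PPP1R15B, and DELE1 was at -0.00658 with equal library totals and -0.00194 with totals without the 10 genes. Among controls the MYC levels differed by 0.0428 for EIF2AK1 with those totals, and by -0.0709 for PPP1R15B and -0.0841 for DELE1 after the GC correction. With IMP1088 the corresponding values were -0.0795 and -0.110. The GC correction shifted the median of all genes between MYC levels from 0.0174 to -0.0965 among controls and from 0.0210 to -0.116 with IMP1088, so PPP1R15B and DELE1 stayed above that median there. The cause was not tested.

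Leaving out 1 library at a time gave -0.0570 to 0.00377 for EIF2AK1, -0.00690 to 0.0107 for GCN1 and -0.0349 to 0.0319 for MAP3K20 at high MYC. It gave -0.0835 to 0.00498 for EIF2AK4 and -0.0329 to 0.0723 for OMA1 at medium MYC, -0.0615 to 0.0477 for the DELE1 difference, and -0.0266 to 0.00853 for EIF2AK1 among controls. With the replicate block, whose numbers do not mark a known pairing (mean residual correlation -0.0715 to 0.0243), the members called were 5, 5, 3, 7 and 9 in the order of the comparisons above, as without it, and all genes called for the difference in response were 1052 in place of 1188. Low read numbers limit the precision of OMA1, with 99 reads in its lowest library, and of CEBPB, ATF3 and DDIT3, with 23, 24 and 25. P-values cover the spread between libraries only.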

Other observations

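The genes whose log2 values over the 16 libraries were most like those of PPP1R15A, the member with the largest difference in response, were SQSTM1 (Pearson r 0.990), SEC24C (0.987) and FICD (0.987), taken from all tested genes outside the list. FICD mRNA had means of 42.0 and 45.1 normalized counts without and with IMP1088 at high MYC, and 86.4 and 140.7 at medium MYC. SQSTM1 had 543 and 554 at high MYC and 775 and 1074.5 at medium MYC. For IMPACT, the member with the largest change between MYC levels among controls, they were MARS2 (0.996), MAPKAPK5 (0.996) and NOM1 (0.995). MARS2, the mitochondrial methionyl-tRNA synthetase, had means of 715 and 841 at high MYC and 174 and 179 at medium MYC. These coefficients are descriptions over libraries that fall into 4 groups, most of their range lies between the MYC levels, and they carry no test.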
